A study of Mus musculus with 39 samples.

Results

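Normal postnatal maturation of the mouse testis was described from 6 RNA-seq libraries, the 3 of WT testis at P8 and the 3 of WT testis at P40, which stand in 1 table of counts. The members were chosen by their labels alone and are 6 of the 39 samples of a series on INSL3 and testis position. The 3 libraries of WT testis at P23, from a second table made separately, are set beside them near the end without a test. All mice were untreated C57BL/6J males, and P8, P23 and P40 are postnatal days. The WT groups carry no engineered allele. INSL3-KI mice, used for 1 comparison at the end, carry the coding sequence of cetacean (minke whale) INSL3 in place of the mouse one at the native locus. The labels call the 3 samples of a group biological replicates without saying that each is 1 animal. Libraries were made from whole testis, so that fewer cells of a type and less RNA per cell cannot be told apart.

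In the mouse, spermatogonial stem cells sit on the basement membrane of the seminiferous tubule beside Sertoli cells, the nurse cells of the tubule. In the first week after birth the tubule holds spermatogonia and dividing Sertoli cells. The first wave of germ cells then enters meiosis, passes through pachytene, divides into round spermatids and, by about the sixth week, forms elongated spermatids whose histones are replaced by transition proteins and then protamines. Leydig cells lie between the tubules and make testosterone and INSL3, and the fetal population is replaced by an adult one over the same weeks.

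Total counts ranged from 34680790 to 42256290 per library. Correlations of log2 CPM, CPM being counts scaled by library size and edgeR's TMM factors, were 0.969 to 0.985 between libraries of 1 age and 0.436 to 0.518 between ages. The biological coefficient of variation was 0.236 at P8 and 0.138 at P40. Levels are given as CPM in the order of replicates 1, 2 and 3. The tissue label held against its defining markers, with Sox9 of Sertoli cells, Star of Leydig cells and Ddx4 of germ cells detected in all 6 libraries. The P8 libraries also held markers of other tissues in unequal amounts. Crisp1, an epididymal secretory protein, was at 0, 27.1 and 38.01 CPM at P8 and 0.153, 0.137 and 0 CPM at P40, and Cdh16, a cadherin of renal and epididymal duct, was at 0.226, 29.6 and 51.9 CPM at P8 and 0.192, 0 and 0.0598 CPM at P40. Both were near 0 in P8 replicate 1 and well above it in P8 replicates 2 and 3. The 8 epididymal markers summed to 6.4e-05% to 0.00489% of the counts at P8 and 0.0004205% to 0.000485% at P40, and Lcn5 and Lcn9 among them were at 0 in all 6 libraries. The 4 adipocyte markers summed to 0.00314% to 0.0183% of the counts at P8 and 0.000869% to 0.000985% at P40, the 6 skeletal muscle markers to 0.000428% to 0.00138% of the counts at P8 and 0.000426% to 0.000516% at P40 and the 5 red blood cell markers to 0.03402% to 0.0683% of the counts at P8 and 0.00666% to 0.00895% at P40. The 3 adrenal markers summed to 0.000697% to 0.000851% of the counts at P8 and 0.000135% to 0.000265% at P40. The part of such tissue in the results below was not tested.

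Which genes changed as the testis matured was asked with edgeR's quasi-likelihood test over 17058 of 22036 Ensembl genes. Calls required a change of 2-fold or more together with a Benjamini-Hochberg adjusted p below 0.01. At P40, 5445 genes (31.9%) were higher and 4724 (27.7%) lower, and 6889 were not called. The changes were not symmetric in size. A gene that had no count at P8, or none at P40, was taken at its bound, the smallest fold change that its counts allow. So taken, 524 genes were at least 1024-fold higher at P40, of which 230 had no count at P8, and 0 were lower by as much. At least 32-fold, the numbers were 1942 higher and 157 lower. By fitted values alone they were 706 higher and 5 lower at 1024-fold, and 1992 higher and 191 lower at 32-fold.

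How the libraries are set against each other decides part of this split. TMM left the median gene at -0.02 on the log2 scale. With library size alone the median moved by -0.68, and when libraries were scaled on 9 Sertoli cell genes it moved by 2.28. Of the called genes, 53.55% were higher with TMM, 38.03% with library size and 95.47% with Sertoli scaling. Under all 3 scalings, 4252 genes were called higher and 566 lower. Of the genes called lower with TMM, 2770 had a positive fold change with Sertoli scaling. Directions below are those with TMM. A change in share of the counts is the value with library size, which differs by about -0.68. A value with Sertoli scaling that turns the sign of a named gene or list is given beside it or in the closing section.

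Genes of spermatogonial stem cells took a smaller share of the transcriptome at P40. Of the 19 genes on the list, all tested, 12 were lower and 1 was higher, with a median log2 fold change of -2.20, against -0.02 over all genes (0.08 with Sertoli scaling), and 4 passed the filter on low counts only through P8. The list took 0.0518% to 0.0657% of the counts at P8 and 0.0126% to 0.0144% at P40. Zbtb16, the transcription factor PLZF that maintains the stem cell pool, was at 56.8, 38.6 and 34.96 CPM at P8 and 4.48, 5.24 and 5.5 CPM at P40. Sall4, a zinc finger factor of undifferentiated spermatogonia, was at 69.1, 47.1 and 41.05 CPM at P8 and 5.06, 5.27 and 7.03 CPM at P40. The ages did not overlap for either gene, and the log2 fold changes were -3.10 ± 0.21 (SE, n = 3 per age, adjusted p = 5.2e-06) for Zbtb16 and -3.17 ± 0.24 (SE, n = 3 per age, adjusted p = 8.3e-06) for Sall4. Both stayed negative with Sertoli scaling, at -0.79 and -0.88. Gfra1, the receptor through which stem cells sense GDNF, fell by 1.31 on the log2 scale, and its value with Sertoli scaling was 0.97. Id4, a helix-loop-helix repressor that marks stem cells at birth, was the 1 member that rose, from 14.96, 19.5 and 23 CPM at P8 to 56.9, 57.8 and 63.1 CPM at P40.

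Genes of differentiating spermatogonia and of meiotic entry were divided. Of 12 genes, 3 were higher and 5 lower, or 25% and 41.7% against 31.9% and 27.7% over all genes. The median was -1.12 (1.19 with Sertoli scaling), and 1 gene passed the filter only through P8. Kit, the receptor of differentiating spermatogonia, was at 121, 61.6 and 58.7 CPM at P8 and 38.4, 41.6 and 43.8 CPM at P40. Stra8, which starts the meiotic programme on retinoic acid, was at 77.3, 31.9 and 29.8 CPM at P8 and 15.2, 18.1 and 23.9 CPM at P40. P8 replicate 1 was the highest library for both, and neither gene was called (adjusted p = 0.012 and 0.016). With library size both were called lower (-1.64 for Kit and -1.96 for Stra8), and with Sertoli scaling they were at 1.35 and 1.03. Kit was called lower without P8 replicate 2 (-1.13) or P8 replicate 3 (-1.15), and Stra8 without P8 replicate 3 (-1.52). Dazl, an RNA-binding protein of germ cells, was not called either, with a log2 fold change of -0.62 ± 0.21. It was called lower with library size (-1.30) and was at 1.70 with Sertoli scaling. Ddx4, the germ cell helicase VASA, rose from 139, 101 and 86.8 CPM at P8 to 716, 703 and 621 CPM at P40, a log2 fold change of 2.64 ± 0.18 (SE, n = 3 per age, adjusted p = 4.9e-06). Dmrtb1, a DM-domain factor of spermatogonia, rose by 5.51 (6.30 without P8 replicate 1), and Ccnd2, a cyclin of dividing spermatogonia, fell by 4.63.

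The genes that build the meiotic chromosome rose. Of 15 genes of the synaptonemal complex and the chromosome axis, 12 were higher and 0 lower, with a median of 3.08, and the list took 0.0234% to 0.0491% of the counts at P8 and 0.199% to 0.202% at P40. Sycp3, a lateral element of the synaptonemal complex, was at 19.9, 10.8 and 7.77 CPM at P8 and 150.4, 151 and 161 CPM at P40. Its change of 3.59 ± 0.33 (SE, n = 3 per age, adjusted p = 2.5e-05) was larger than the spread within either age, while P8 replicate 1 held more than the other P8 libraries. The transverse filament gene Sycp1 was at 39.3, 23.1 and 19.4 CPM at P8 and 199.6, 225 and 222 CPM at P40, and Hormad1, which marks unsynapsed axes, at 8.67, 4.98 and 3.62 CPM at P8 and 108, 122 and 123 CPM at P40. The largest change of the list was that of Syce1, at 5.23. Rec8, the meiotic cohesin subunit, rose by 3.08 ± 0.26 (SE, n = 3 per age, adjusted p = 1.4e-05). Tex11, an X-linked synapsis gene, was not called, at -1.06 ± 0.33 (1.26 with Sertoli scaling), but was called lower without P8 replicate 3 (-1.30).

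Of 20 recombination genes, 15 were higher and 1 lower, with a median of 2.22, and 1 of them passed the filter only through P40. Spo11, the enzyme that makes the meiotic double-strand breaks, was at 0.928, 0.289 and 0.362 CPM at P8 and 57.2, 65.4 and 56.97 CPM at P40, a change of 6.84 ± 0.36 (SE, n = 3 per age, adjusted p = 1.2e-06), or 7.51 without P8 replicate 1. Every P40 library held a higher CPM than any P8 library. Dmc1, the meiotic recombinase, and Prdm9, the histone methyltransferase that places the breaks, act in early prophase and changed less. Dmc1 was at 11.6, 7.96 and 7.37 CPM at P8 and 17.4, 18.04 and 20.4 CPM at P40 and its call, at 1.05, was lost without P8 replicate 2 (0.97) or P8 replicate 3 (0.93). Prdm9 was at 4.19, 1.57 and 1.45 CPM at P8 and 7.01, 6.95 and 8.28 CPM at P40 and its call, at 1.63 (2.30 without P8 replicate 1), was lost without any of P8 replicates 2 and 3 or P40 replicates 1, 2 and 3 (lowest adjusted p = 0.016). Meiob, a single-strand DNA binding protein of recombination, had 3 counts at P8 in all and a ratio of 1004 with a counting interval of 343 to 4875. Rec114, a partner of SPO11 in break formation, was the member that fell, by 1.72, but was at 0.60 with Sertoli scaling, and its call was lost without P40 replicate 2.

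Genes of pachytene and of the meiotic divisions rose as well. Of 12 genes, 11 were higher and none lower, with a median of 4.61. Ccna1, the cyclin that germ cells need to leave prophase, was at 0.4301, 0.207 and 1.19 CPM at P8 and 247, 238 and 225 CPM at P40. Hspa2, a chaperone of spermatocytes that loads CDK1, was at 24.3, 18.4 and 20.9 CPM at P8 and 2109, 2132 and 2041 CPM at P40. Neither gene had a P8 library near the P40 range, and the changes were 8.59 ± 0.45 (SE, n = 3 per age, adjusted p = 1.1e-06) and 6.63 ± 0.14 (SE, n = 3 per age, adjusted p = 2.7e-08), the first at 9.54 without P8 replicate 3. Mybl1, the A-MYB factor that drives pachytene transcription, rose by 2.49 ± 0.15 (SE, n = 3 per age, adjusted p = 2.5e-06). Cdc25c, a phosphatase of the G2/M transition, was not called, at 0.63 ± 0.15, and had a value of -0.05 with library size.

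Of 20 genes of the piRNA pathway, which silences transposons and processes small RNAs of germ cells, 16 were higher and 1 was lower, with a median of 2.60. The 3 PIWI genes changed by different amounts. Piwil1 (MIWI), which binds pachytene piRNAs, was at 5.32, 2.98 and 3.81 CPM at P8 and 575, 608 and 688 CPM at P40. Piwil2 (MILI), present from the fetal stage, was at 167, 97.2 and 80.96 CPM at P8 and 275, 288 and 275 CPM at P40. Piwil4 (MIWI2), which acts in fetal and neonatal germ cells, was at 7.696, 5.93 and 5.11 CPM at P8 and 0.498, 0.308 and 0.897 CPM at P40. Libraries of the ages did not overlap for any of the 3, and the changes were 7.27 ± 0.24 (SE, n = 3 per age, adjusted p = 1.2e-07), 1.28 ± 0.25 (SE, n = 3 per age, adjusted p = 0.0019) and -3.44 ± 0.42 (SE, n = 3 per age, adjusted p = 0.00014). The call of Piwil2 was lost with library size (0.60, adjusted p = 0.06). The largest change of the list was that of Tdrd6, a scaffold of the chromatoid body, at 11.83.

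Regulators of spermatid transcription and translation formed the next group. Of 12 genes, 11 were higher and none lower, with a median of 6.67, and the list took 0.01895% to 0.0274% of the counts at P8 and 0.634% to 0.688% at P40. Crem, the cAMP-responsive activator of round spermatids, was at 6.68, 8.91 and 8.304 CPM at P8 and 264, 257 and 214 CPM at P40. Rfx2, a driver of ciliary and spermatid genes, was at 9.51, 9.67 and 12.97 CPM at P8 and 796, 816 and 754 CPM at P40. Both were lower in every P8 library than in any P40 library, with changes of 4.94 ± 0.15 (SE, n = 3 per age, adjusted p = 8.7e-08) and 6.20 ± 0.16 (SE, n = 3 per age, adjusted p = 4.4e-08). Sox30 rose by 7.51 ± 0.25 (SE, n = 3 per age, adjusted p = 1.2e-07) and Tbpl1, the TBP-like factor TLF, by 3.52 ± 0.08 (SE, n = 3 per age, adjusted p = 3.3e-08). The largest change was that of Spz1, a helix-loop-helix factor of spermatids with 6 counts at P8, at 14.66 (15.54 without P8 replicate 3). Spz1 passed the filter only through P40, so that it had to differ. Taf7l, an X-linked TFIID subunit, was not called, at -0.93 ± 0.25 (1.39 with Sertoli scaling), but was called lower without P8 replicate 3 (-1.14).

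Most genes for the proteins that pack the sperm nucleus went from few or no counts at P8 to far higher levels at P40. Of 14 genes, 12 were higher and none lower, with a median of 12.03, and 11 of the 14 passed the filter only through P40, so that these had to differ. Prm1, a protamine, was at 0, 0 and 0.149 CPM at P8 and 1382, 1220 and 1055 CPM at P40, and Prm2, the other, at 0, 0 and 0.128 CPM at P8 and 3359, 3190 and 2372 CPM at P40. Tnp1, a transition protein that bridges histones and protamines, was at 0 in all 3 libraries at P8 and 509.7, 405 and 376 CPM at P40, and Tnp2, the other, at 0.0679, 0.103 and 0.128 CPM at P8 and 1863, 2110 and 2105 CPM at P40. At P8 they had 7, 6, 0 and 14 counts over the 3 libraries in that order, those of the protamines all in P8 replicate 3, and P40 replicate 3 was the lowest P40 library for Prm1, Prm2 and Tnp1. Changes were 14.48 ± 0.48 (SE, n = 3 per age, adjusted p = 1.2e-07) for Prm1, 15.97 ± 0.50 (SE, n = 3 per age, adjusted p = 9.5e-08) for Prm2 and 14.26 ± 0.19 (SE, n = 3 per age, adjusted p = 1.4e-08) for Tnp2, and Tnp1 was at least 19760-fold higher, with P8 taken at 3 counts over the group. With 1 library left out, Prm1 ranged over 13.89 to 18.43 and Prm2 over 15.39 to 19.72, each highest without P8 replicate 3, which leaves no P8 count. Rnf8, a ubiquitin ligase of histone removal that other cells express too, was not called, at 0.45 ± 0.14 (-0.23 with library size).

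Prm1, Prm2, Prm3 and Tnp2 lie within 17904 bases of chromosome 16 (chr16:10787936-10805839, GRCm38, GENCODE M21), all on the minus strand, and Tnp1 lies apart at chr1:73015074-73015909. The promoters of Prm1, Prm2, Tnp1 and Tnp2 are shown because these genes went together from few or no counts to high levels at P40. Sequences are from RefSeq (GRCm38.p6), from 200 bases before to 20 after the start, 5′ to 3′, with capitals for a CRE-like site (TGANNTCA, the cAMP response element with any 2 central bases) or a TATA box (TATAAA) on either strand.
Prm1, chr16:10796804-10797023 (minus strand): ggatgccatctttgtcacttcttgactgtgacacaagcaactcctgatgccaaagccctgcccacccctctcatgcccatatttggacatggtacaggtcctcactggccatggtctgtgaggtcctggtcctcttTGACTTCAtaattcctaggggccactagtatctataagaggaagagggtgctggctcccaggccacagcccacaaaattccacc
Prm2, chr16:10792086-10792305 (minus strand): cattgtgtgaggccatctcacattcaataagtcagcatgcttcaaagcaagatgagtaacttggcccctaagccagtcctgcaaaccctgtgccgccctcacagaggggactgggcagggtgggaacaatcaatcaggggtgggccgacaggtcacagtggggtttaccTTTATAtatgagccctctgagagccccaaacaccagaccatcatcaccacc
Tnp1, chr1:73015880-73016099 (minus strand): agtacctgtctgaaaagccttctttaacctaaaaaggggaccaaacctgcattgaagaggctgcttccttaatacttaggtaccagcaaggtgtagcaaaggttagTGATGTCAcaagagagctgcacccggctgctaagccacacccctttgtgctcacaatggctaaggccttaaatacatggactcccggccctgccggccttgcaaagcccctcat
Tnp2, chr16:10788636-10788855 (minus strand): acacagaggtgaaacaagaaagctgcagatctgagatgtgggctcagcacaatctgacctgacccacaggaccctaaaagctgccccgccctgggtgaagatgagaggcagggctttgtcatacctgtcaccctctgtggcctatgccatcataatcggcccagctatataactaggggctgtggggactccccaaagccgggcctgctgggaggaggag
The CRE-like letters were TGACTTCA in Prm1, at position -64 from the start, and TGATGTCA in Tnp1, at -94. In Prm2 the TATA box began at -31, on the opposite strand (TTTATA). None of the searched letters were in the Tnp2 window.

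All 19 genes of the acrosome and of sperm-egg contact were higher, with a median of 11.13 (10.16 with undetected genes at their bound), and 11 passed the filter only through P40. Acr, the acrosomal protease acrosin, was at 0.249, 0.331 and 0.277 CPM at P8 and 313, 304 and 260.5 CPM at P40. Izumo1, the sperm protein that binds the egg receptor JUNO, was at 0.385, 0.3101 and 0.468 CPM at P8 and 70.6, 65.5 and 49.3 CPM at P40. Both had a few counts in every P8 library, with changes of 9.98 ± 0.16 (SE, n = 3 per age, adjusted p = 1.6e-08) and 7.30 ± 0.23 (SE, n = 3 per age, adjusted p = 9.3e-08). Acrv1, an acrosomal antigen, had 3 counts at P8 in all, which gives a ratio of 8175 with a 95% counting interval of 2797 to 39640. Spam1, the sperm hyaluronidase, had no count at P8 and 77.5, 80.8 and 50.9 CPM at P40, at least 3190-fold higher. The smallest change of the list was that of Spaca6, at 1.88. Such intervals and bounds cover counting error only.

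All 32 genes of the sperm tail were higher, with a median of 9.08, and 9 passed the filter only through P40. This list took 0.0115% to 0.0136% of the counts at P8 and 2.14% to 2.34% at P40. Akap4, the main protein of the fibrous sheath and X-linked, was at 0.294, 0.248 and 0.149 CPM at P8 and 2215, 2170 and 1775 CPM at P40. Odf1, an outer dense fibre protein, was at 0.249, 0.186 and 0.1703 CPM at P8 and 1425, 1369 and 1048 CPM at P40. Smcp, a cysteine-rich protein of the mitochondrial sheath, had 2 counts at P8 and 1932, 1996 and 1742 CPM at P40, a ratio of 131300 with a counting interval of 36340 to 1084000. The smallest change was that of Cfap43, an axonemal protein, at 4.91. Dnah8, an outer arm heavy chain, rose by 8.71 ± 0.22 (SE, n = 3 per age, adjusted p = 4.2e-08). Of 15 ion channel and transport genes of sperm, 14 were higher and 1 was lower, and 8 of the 15 passed the filter only through P40, so that these had to differ. Catsper1, the pore of the sperm calcium channel, was undetected at P8 and at 164, 148 and 125 CPM at P40, at least 6705-fold higher. Kcnu1, the sperm potassium channel SLO3, rose by 7.28 ± 0.17 (SE, n = 3 per age, adjusted p = 3.1e-08). Hvcn1, a proton channel that immune cells express too, fell by 2.41.

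**Figure D1:**
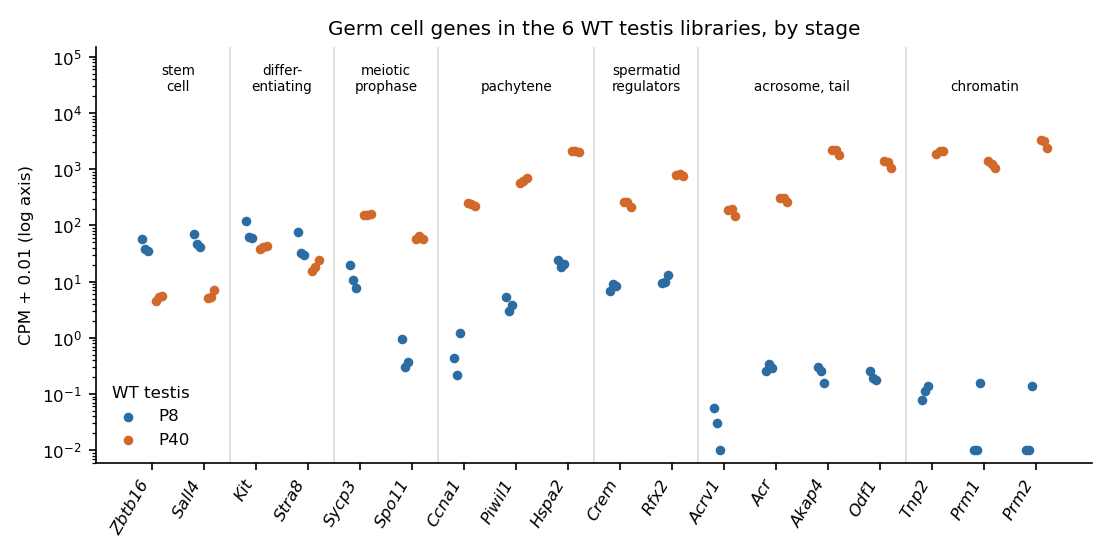
CPM plus 0.01 on a log axis of 18 germ cell genes in each of the 3 P8 and 3 P40 WT libraries (points), ordered by the stage at which the gene acts. Stem cell genes sit higher at P8, Kit and Stra8 also lie higher at P8, by less and without a call, and from Sycp3 on every P40 library lies above every P8 library, with Prm2 at 2372 to 3359 CPM at P40.

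By fitted fold change, the 10 largest rises among genes with a mean of at least 10 CPM were all of genes without a count at P8, whose fitted values depend on the fit. They passed the filter only through P40, so that they had to differ. At their bounds they stand below Smcp, at a ratio of 131300, and Prm2. Beside Tnp1 they included Spert (at least 30170-fold), Tcp10c (at least 28870-fold), Adam2 (at least 27700-fold), Iqcf3 (at least 23880-fold), Spem2 (at least 22800-fold), Actrt2 (at least 20290-fold), Sppl2c (at least 20070-fold) and Galntl5 (at least 16720-fold). Adam2 encodes fertilin beta, a sperm surface protein, Spem2 a protein of spermatid maturation, and Sppl2c an intramembrane protease of spermatids. Spert was at 0 in all 3 libraries at P8 and 673, 679 and 604 CPM at P40. Mitochondrial genes were left out of the ranking per length that follows. Among the other genes, the most abundant transcripts per length at P40 were Prm2 at 3538 ± 526 FPKM, Tnp2 at 2716 ± 249.7, Prm1 at 1924 ± 204, Ldhc at 1902 ± 151 and Ubb at 1688 ± 17.9 (SD, n = 3), where FPKM is the authors' value normalised for length and depth. At P8 they were Eef1a1 at 4120 ± 201 FPKM, Clu at 1279 ± 242, Rplp0 at 1249 ± 33.7, Tpt1 at 1215 ± 178 and Sparc at 1173 ± 251 (SD, n = 3). Thus 3 of these 5 transcripts at P40 were of the nuclear packing proteins of spermatids, while those at P8 were of translation (Eef1a1, Rplp0), of the matrix (Sparc), the growth-related Tpt1 and the Sertoli cell product clusterin (Clu).

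Sertoli cell genes took a smaller share of the transcriptome at P40, but a minority rose. Of 28 genes, 18 were lower and 5 higher, with a median of -1.93, and the list took 0.667% to 0.887% of the counts at P8 and 0.178% to 0.214% at P40. With Sertoli scaling, which rests on 9 of these genes, 4 were called lower and 10 higher. Amh, the hormone of immature Sertoli cells, was at 448, 686 and 544 CPM at P8 and 5.75, 4.999 and 5.41 CPM at P40. It fell by 6.70 ± 0.20 (SE, n = 3 per age, adjusted p = 7.7e-08) on the log2 scale and was at -4.41 with Sertoli scaling. Gdnf, the niche factor of stem cells, was at 22.7, 29.5 and 21.2 CPM at P8 and 1.19, 2.05 and 1.94 CPM at P40, a change of -3.81 ± 0.25 (SE, n = 3 per age, adjusted p = 3.9e-06, or -1.52 with Sertoli scaling).

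Sertoli identity genes fell too. Sox9 was at 124, 115 and 82.8 CPM at P8 and 22.8, 24.6 and 27.4 CPM at P40, and Wt1 at 281, 274 and 237 CPM at P8 and 61.9, 63.1 and 76.5 CPM at P40. The FSH receptor gene Fshr was at 30.7, 34.9 and 27.8 CPM at P8 and 5.83, 5.62 and 6.84 CPM at P40. Their changes were -2.10 ± 0.17, -1.97 ± 0.12 and -2.35 ± 0.14 (SE), and all 3 belong to the scaling list, with which they were at 0.21, 0.32 and -0.06. Inha, the inhibin alpha subunit, fell by 1.89 (0.41 with Sertoli scaling). The members that rose were Rhox5, Tsx, Eppin, Cldn3 and Drd4. Rhox5, an androgen-induced X-linked homeobox gene, was at 1.09, 0.517 and 0.319 CPM at P8 and 9.24, 9.21 and 7.08 CPM at P40, a change of 3.73 ± 0.45 (SE, n = 3 per age, adjusted p = 0.00013), or 4.33 without P8 replicate 1. Tsx rose by 6.09, Cldn3, a tight junction claudin of the blood-testis barrier, by 3.16, and Eppin, a protease inhibitor, by 3.07. Clu (-0.58 ± 0.14, or 1.73 with Sertoli scaling) and Trf, the iron carrier transferrin (-0.65 ± 0.47, or 1.49 with Sertoli scaling), were not called. Trf was higher in P8 replicate 3 than in the other P8 libraries and was at 0.09 without that library.

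Of 21 Leydig cell genes, 6 were higher and 6 lower, 28.6% each way and near the 31.9% and 27.7% over all genes, with a median of 0.12 (-0.55 with library size), and the list took 0.177% to 0.202% of the counts at P8 and 0.164% to 0.201% at P40. Insl3, the hormone that the series is about, was at 66.1, 72.8 and 57.96 CPM at P8 and 774, 715 and 891 CPM at P40, a change of 3.60 ± 0.13 (SE, n = 3 per age, adjusted p = 1.9e-07). Hsd3b6, the 3-beta-hydroxysteroid dehydrogenase of adult Leydig cells, was at 0.0679, 0 and 0.0639 CPM at P8 and 94.1, 106 and 92.5 CPM at P40. It had 6 counts over the 3 P8 libraries and passed the filter on low counts only through P40, so that it had to differ. Its fitted rise was 11.04 ± 0.31 (SE, n = 3 per age, adjusted p = 6.0e-08), or 10.46 without P8 replicate 2. Another member of the list, 1 gene, passed only through P8. Thbs2, a thrombospondin of fetal Leydig cells, was at 82.6, 104 and 140.5 CPM at P8 and 1.26, 1.47 and 2.63 CPM at P40, a change of -5.91 ± 0.33 (SE, n = 3 per age, adjusted p = 1.6e-06). Values at P8 exceeded every P40 value for Thbs2 and lay below every P40 value for Insl3 and Hsd3b6. Thbs2 rose from P8 replicate 1 to 3 in the order of Crisp1 and Cdh16 above. The part of other tissue in its fall was not tested.

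The steroidogenic chain was uneven. Cyp11a1, which cleaves the cholesterol side chain, was at 104, 118 and 115 CPM at P8 and 264, 227 and 291 CPM at P40, and Cyp17a1, the 17-alpha-hydroxylase, at 95.2, 107 and 121 CPM at P8 and 364, 319.7 and 346 CPM at P40. Their changes were 1.22 ± 0.11 (SE, n = 3 per age, adjusted p = 2.3e-05) and 1.67 ± 0.11 (SE, n = 3 per age, adjusted p = 3.6e-06). Star, the cholesterol carrier of the mitochondrion, was at 43.9, 79.98 and 60.5 CPM at P8 and 62.8, 63.2 and 74.5 CPM at P40 and was not called (0.12 ± 0.21; -0.55 with library size and 2.41 with Sertoli scaling), with P8 replicate 1 below and P8 replicate 2 above all P40 libraries. Neither Lhcgr, the LH receptor (0.39 ± 0.13; -0.29 with library size), nor Hsd3b1 (-0.55 ± 0.15; 1.74 with Sertoli scaling) was called. Hsd17b3, the last step to testosterone in the adult gland but made by Sertoli cells in the fetus, was lower, at 73.8, 100 and 77.3 CPM at P8 and 29.1, 23.7 and 25.4 CPM at P40, a change of -1.69 ± 0.14 (SE, n = 3 per age, adjusted p = 1.8e-05, or 0.62 with Sertoli scaling). Rxfp2, the INSL3 receptor, was at 0.317, 0.951 and 1.62 CPM at P8 and 9.43, 7.22 and 7.44 CPM at P40, a change of 3.05 ± 0.53 (SE, n = 3 per age, adjusted p = 0.00094), or 3.64 without P8 replicate 3.

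Genes of the extracellular matrix fell, and so did most genes of the smooth muscle of the tubule wall. All 14 matrix genes were lower, with a median of -4.15 (-1.93 with Sertoli scaling, 12 of 14 called lower), and they took 1.52% to 3.54% of the counts at P8 and 0.08598% to 0.163% at P40. Col1a1, a fibrillar collagen chain, was at 1620, 2841 and 5883 CPM at P8 and 73.2, 49.7 and 156 CPM at P40. Col3a1, another fibrillar collagen, was at 1906, 3238 and 6364 CPM at P8 and 96.7, 67.5 and 204 CPM at P40. P8 replicate 3 held the most and P8 replicate 1 the least of both, and P40 libraries stayed below all of them, with changes of -5.21 ± 0.65 (SE, n = 3 per age, adjusted p = 0.00015) and -4.97 ± 0.61 (SE, n = 3 per age, adjusted p = 0.00014), the first at -4.59 without P8 replicate 3. Both rose from P8 replicate 1 to 3 in the order of Crisp1 and Cdh16 above, and the part of other tissue in their falls was not tested. Sparc, a matrix glycoprotein, was the member that fell least, by 1.70 (0.53 with Sertoli scaling). Of 8 smooth muscle genes, 7 were lower and 1, the gamma actin Actg2, was higher (at 3.59). The median of this list was -1.96, but 0.28 with Sertoli scaling, with which none of the 8 was called lower and 1 was called higher. Acta2, the actin of peritubular myoid cells, was at 517, 626 and 752 CPM at P8 and 86.2, 80.1 and 130.2 CPM at P40, a change of -2.67 ± 0.23 (SE, n = 3 per age, adjusted p = 1.5e-05), and Myh11, smooth muscle myosin, changed by -1.98 ± 0.16, with 0.26 under Sertoli scaling.

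Of 11 endothelial genes, 8 were lower and none higher, with a median of -1.80 (0.40 with Sertoli scaling). Pecam1, an endothelial junction protein, was at 24.8, 30.7 and 57.9 CPM at P8 and 4.98, 5.58 and 4.84 CPM at P40, highest in P8 replicate 3, and changed by -2.88 ± 0.33 (SE, n = 3 per age, adjusted p = 8.8e-05). Of 12 macrophage genes, 1 was higher, the antigen-presentation chain Cd74 (at 2.04), and none lower, with a median of 0.18 (-0.48 with library size). Csf1r, the macrophage growth factor receptor, was at 20.1, 26.3 and 54.7 CPM at P8 and 23.4, 21.9 and 32.3 CPM at P40. It was not called (-0.38 ± 0.36, or 0.16 without P8 replicate 3 and 1.80 with Sertoli scaling).

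Genes of the mitotic cycle fell in part. Of 17, 9 were lower and 2 higher, with a median of -1.22 (1.08 with Sertoli scaling), and they took 0.289% to 0.307% of the counts at P8 and 0.129% to 0.131% at P40. Mki67, the proliferation antigen, was at 175, 202 and 193 CPM at P8 and 61.97, 57.5 and 66.7 CPM at P40, a change of -1.61 ± 0.09 (SE, n = 3 per age, adjusted p = 2.0e-06, or 0.67 with Sertoli scaling). Ccna2, the S-phase cyclin, was at 161, 174 and 164 CPM at P8 and 13.6, 14.7 and 15.7 CPM at P40, a change of -3.50 ± 0.09 (SE, n = 3 per age, adjusted p = 4.9e-08, or -1.22 with Sertoli scaling). Plk1 (2.02) and Ccnb2 (1.64), which act in both mitosis and meiosis, were the members that rose.

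Imprinted growth genes, a set that falls in many organs after birth, were lower without exception. Of 12 genes on the list, 10 were in the table and tested, and all 10 were lower, with a median of -4.18 (-1.95 with Sertoli scaling, 6 of 10 called lower). Dlk1, a transmembrane Notch-like protein, was at 722, 884 and 1201 CPM at P8 and 2.07, 2.43 and 3.198 CPM at P40. Igf2, the fetal growth factor, was at 233, 339 and 580.5 CPM at P8 and 4.79, 11.3 and 10.6 CPM at P40. The lowest P8 value of each gene was far above its highest P40 value, with changes of -8.50 ± 0.29 (SE, n = 3 per age, adjusted p = 1.3e-07) and -5.43 ± 0.47 (SE, n = 3 per age, adjusted p = 1.8e-05). Peg3, a paternally expressed zinc finger gene, fell by 4.14, and Grb10, an adaptor that restrains insulin signalling, by 1.81, with 0.42 under Sertoli scaling. P8 replicate 3 was the highest library and P8 replicate 1 the lowest P8 library for Dlk1, Igf2 and Peg3, the order of Crisp1 and Cdh16 above.

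The 10 largest falls among genes with a mean of at least 10 CPM held Dlk1 and the imprinted zinc finger gene Zim1. Col9a2, a cartilage collagen, was at 25.4, 47.8 and 71.97 CPM at P8 and 0.153, 0 and 0 CPM at P40, a log2 fold change of -9.96 ± 0.76. It ranged over -13.93 to -9.30 with 1 library left out, lowest without P40 replicate 1, which held all 4 counts at P40. Agtr2, the X-linked angiotensin receptor of fetal tissue, was at 57.7, 105 and 193 CPM at P8 and 0.422, 0.719 and 0.359 CPM at P40, a change of -7.89 ± 0.60. At P8, Col9a2 and Agtr2 also rose from replicate 1 to 3 in the order of Crisp1 and Cdh16. Bcan (-8.12 ± 0.24), a proteoglycan, Adamts16 (-8.17 ± 0.68, or -10.18 without P40 replicate 2 and -7.49 without P40 replicate 3), Cbln4 (-6.97 ± 0.44) and Lgals7 (-6.89 ± 0.66, or -8.83 without P40 replicate 3) were further ones. Cdh16 was also among them, whose libraries are given above, at -8.37 ± 2.0. Its SE was the largest of the 10, and its call was lost without P8 replicate 2 or any P40 replicate (lowest adjusted p = 0.012). Col9a2, Zim1, Adamts16, Cbln4, Lgals7 and Cdh16 passed the filter only through P8, so that these had to differ.

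Of 19 heat shock protein genes, 6 were higher and 7 lower, or 31.6% and 36.8% against 31.9% and 27.7% over all genes, with a median of 0.50 (-0.18 with library size), and the list took 0.686% to 0.756% of the counts at P8 and 0.822% to 0.845% at P40. Hspa1l, the HSP70 of spermatids, was at 4.26, 4.34 and 3.85 CPM at P8 and 1009, 998 and 939.8 CPM at P40. Hspa1b, the stress-inducible HSP70 beside it on chromosome 17, was at 43.4, 60.8 and 42.7 CPM at P8 and 8.24, 9.89 and 15.5 CPM at P40. Hspa1l rose by 7.89 ± 0.11 (SE, n = 3 per age, adjusted p = 1.4e-08) and Hspa1b changed by -2.12 ± 0.26 (SE, n = 3 per age, adjusted p = 0.00013), or 0.16 with Sertoli scaling. The HSP90 genes also parted. Hsp90aa1 was at 793, 698 and 616 CPM at P8 and 2652, 2786 and 2695 CPM at P40 and Hsp90ab1 at 1979, 2019 and 1901 CPM at P8 and 479, 459.8 and 509 CPM at P40, with changes of 1.95 ± 0.11 (SE, n = 3 per age, adjusted p = 1.9e-06) and -2.03 ± 0.08 (SE, n = 3 per age, adjusted p = 3.4e-07), the second at 0.26 with Sertoli scaling. Hspa8, the constitutive HSC70, fell by 1.70 (0.58 with Sertoli scaling). Cpeb3, a translational regulator that the study's text names, was at 5.68, 5.66 and 6.32 CPM at P8 and 168, 182 and 164 CPM at P40, a change of 4.86 ± 0.10 (SE, n = 3 per age, adjusted p = 2.3e-08).

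**Figure D2:**
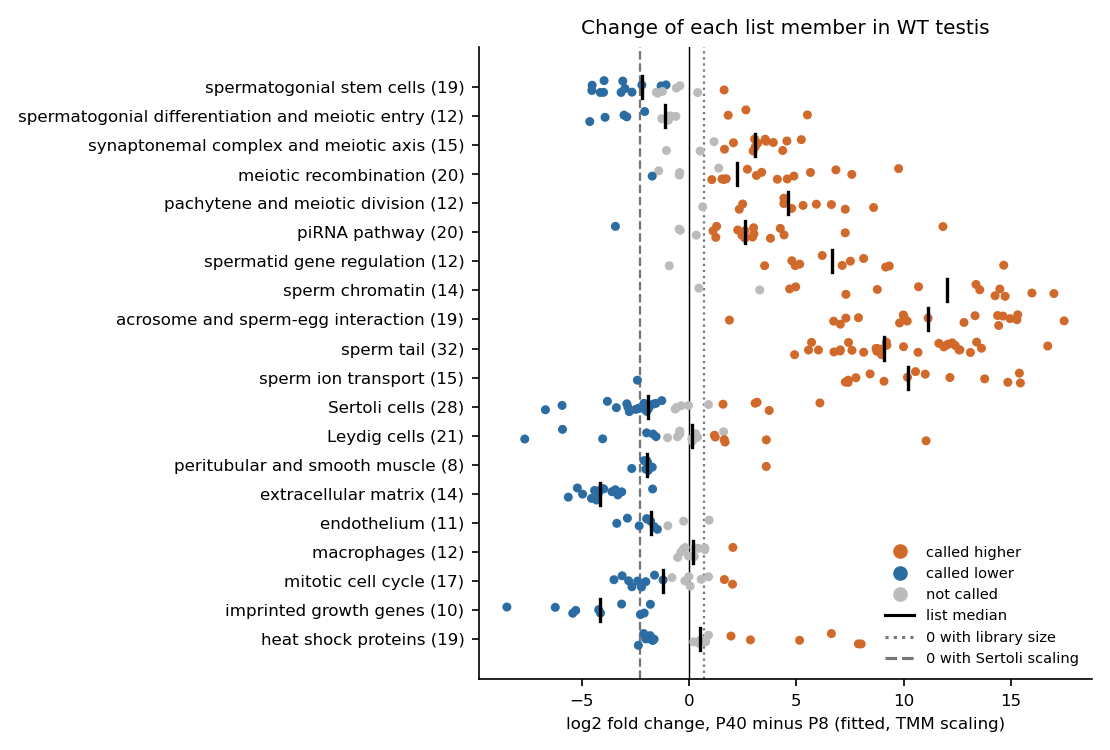
Fitted log2 fold change, P40 minus P8, of each tested member (points) of 20 gene lists with 8 or more tested members, with the list median as a bar and the number tested in brackets. The dotted and dashed lines mark where 0 lies with library size and with Sertoli scaling. Medians of the lists from the meiotic axis to sperm ion transport lie right of both, and those of the matrix and imprinted lists left of both, while the fitted values of genes without a count at P8 depend on the fit.

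Many housekeeping genes have a related gene that germ cells use mainly or only, in some cases an intronless copy of an X-linked gene. For 24 pairs the member called germline here was set against the somatic member within each library, as the log2 ratio of FPKM plus 1. Not every germline member was scarce at P8, when Tbpl1 was at a mean of 15.3 FPKM and Cstf2t at 17.4 FPKM. The FPKM ratio itself does not depend on the scaling between libraries, but the added 1 shrinks the ratio where a member is below about 1 FPKM, and with 0.1 in its place the change for Pgk2 over Pgk1 was 14.24 rather than 11.15. In 24 of 24 pairs the ratio was higher in every P40 library than in every P8 library, by a median of 6.48 (two-sided exact permutation p = 0.10 for each pair, the smallest that 3 against 3 allow, and 0.10 after adjustment over the 24 pairs). The germline member was called higher in 22 pairs and the somatic member lower in 16, of which 11 had a positive value with Sertoli scaling. Both held in 15 pairs. The germline member had the higher mean FPKM in 1 pair at P8 (Tbpl1 over Tbp) and in 20 pairs at P40.

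Glycolytic enzymes had some of the widest changes. Pgk2, the germ cell phosphoglycerate kinase, was at 0, 0.0171 and 0.0931 FPKM at P8 and 408, 408 and 333 FPKM at P40. Its X-linked partner Pgk1 was at 54.9, 61.6 and 70.2 FPKM at P8 and 8.95, 8.82 and 9.83 FPKM at P40. The order of the pair was turned over in all 6 libraries by age, with a log2 ratio of -5.92 ± 0.11 at P8 and 5.23 ± 0.24 at P40 (SD, n = 3). Gapdhs, the sperm glyceraldehyde-3-phosphate dehydrogenase, was at 0.862, 1.63 and 0.815 FPKM at P8 and 830, 838 and 709 FPKM at P40, against 13.5, 7.18 and 12.2 FPKM at P8 and 2.28, 1.78 and 3.16 FPKM at P40 for Gapdh, which has many near-identical pseudogenes, so that its level is uncertain, and whose call was lost without P40 replicate 1 or P40 replicate 2. Ldhc, the sperm lactate dehydrogenase, was at 0.358, 0.424 and 0.412 FPKM at P8 and 2010, 1967 and 1729 FPKM at P40. Its neighbour Ldha, 5575 bases away on chromosome 7, was at 103, 121 and 142 FPKM at P8 and 569, 562 and 552 FPKM at P40, so that here both members rose. Eno4 stayed below Eno1 at both ages, with a ratio of -7.18 ± 0.16 at P8 and -3.0 ± 0.05 at P40 (SD, n = 3).

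Of the somatic partners, 8 are X-linked. Rpl10, an X-linked ribosomal protein gene, was at 523, 682 and 740.3 FPKM at P8 and 39.7, 35.1 and 45.4 FPKM at P40, and its autosomal copy Rpl10l at 39.6, 30.1 and 21.4 FPKM at P8 and 216, 207 and 195 FPKM at P40. Rpl10 and Rpl39 had negative values with Sertoli scaling too (-1.07 and -1.98), as had Pdha1 (-0.60) and Rbmx (-0.52). The ratio changed least for the X-linked Cstf2 and its copy Cstf2t, from -0.41 ± 0.16 at P8 to -0.09 ± 0.03 at P40 (SD, n = 3), and neither gene was called (0.28 for Cstf2t and -0.05 for Cstf2). Copies that share long stretches can exchange reads in counting, so that ratios of close copies such as Rpl10l, Rpl39l and Aldoart1 are uncertain.

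The promoters of Pgk2 and Pgk1 are shown to set an autosomal germ cell copy beside its X-linked source. Capitals mark CG dinucleotides.
Pgk2, chr17:40208590-40208809 (minus strand): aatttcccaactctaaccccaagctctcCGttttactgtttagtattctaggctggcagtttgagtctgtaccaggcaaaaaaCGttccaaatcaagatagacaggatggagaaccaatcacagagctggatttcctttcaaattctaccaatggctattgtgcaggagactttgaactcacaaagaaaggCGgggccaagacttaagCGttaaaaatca
Pgk1, chrX:106186900-106187119 (plus strand): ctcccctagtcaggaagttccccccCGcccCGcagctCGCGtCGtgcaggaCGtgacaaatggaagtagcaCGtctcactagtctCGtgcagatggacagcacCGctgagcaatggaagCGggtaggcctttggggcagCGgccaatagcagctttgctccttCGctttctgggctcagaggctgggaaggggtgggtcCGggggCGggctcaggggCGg
These 220 bases held 4 CG dinucleotides in Pgk2 and 15 in Pgk1.

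**Figure D3:**
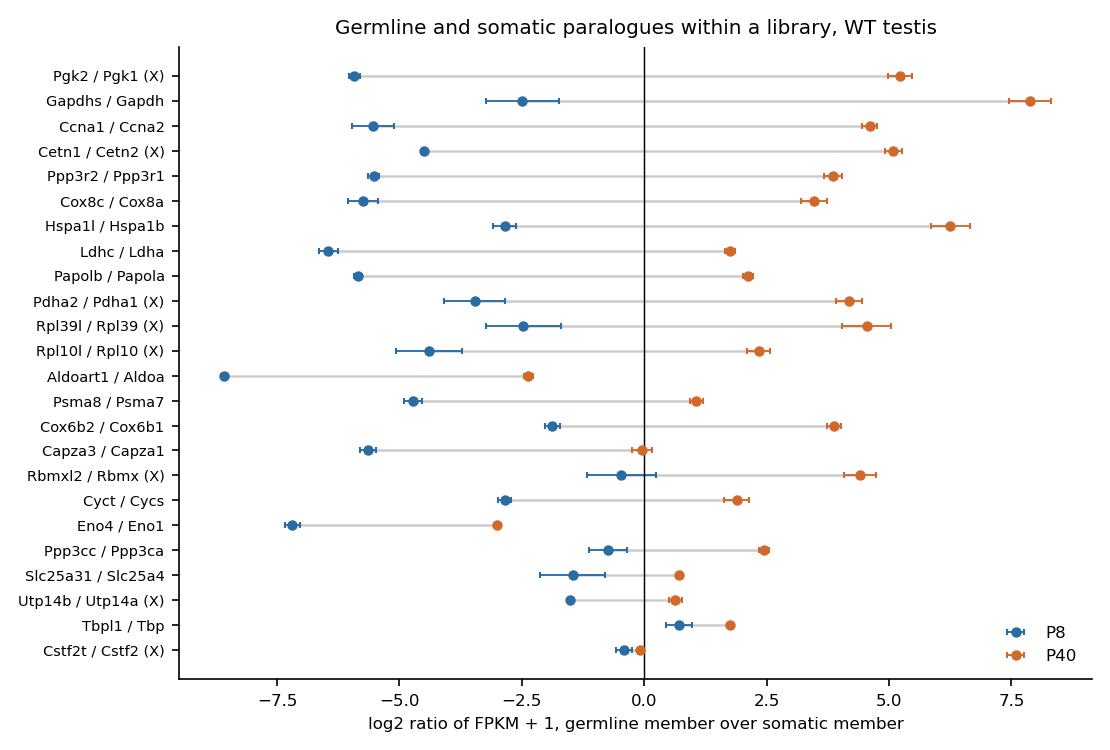
Log2 ratio of FPKM plus 1, germline over somatic member, for 24 pairs at P8 and P40 (mean and SD of 3 WT libraries each), with X for an X-linked somatic member. In all 24 pairs the P40 point lies to the right of the P8 point, and Pgk2 over Pgk1 moves the farthest, by 11.15.

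RefSeq windows of 300 bases, 250 before and 50 after the start, matched 13316 of the 16601 tested genes (80.2%) on the chromosomes for which windows were at hand. Windows of the genes at least 1024-fold higher at P40 (408 with a window) were poorer in CG. They held a median of 4 CG dinucleotides and 50.7% GC, against 19 and 61.3% for genes lower at P40 and 18 and 59.7% over all windows. The CRE-like letters TGANNTCA were in 31.4% of them and in 11.4% of all windows, and the full CRE TGACGTCA, which holds a CG and is 1 form of the former, in 0.98% and 2.82%. The shorter CRE core TGACGT, part of the full site, was in 4.17% and 10.3%. The RFX site GTTGCCAT was in 4.17% of the steeply rising genes, 2.39% of all genes higher, 0.444% of those lower and 1.27% of all windows. The MYB core CAGTTG was in 18.4% of the steeply rising genes and 11.5% of all windows, and TATAAA in 14.2% and 8.1%. Both strands were searched. AT-rich letters are likelier in GC-poor windows, and the shares were not corrected for that.

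By chromosome, the X chromosome lay outside the range of the autosomes in its share of lower genes, its median change and its share of counts. Of 777 X-linked genes tested, 46.9% were lower at P40, against 21.9% to 35% on the 19 autosomes, and 25.9% were higher, against 25.2% to 43.2%. The median X-linked log2 fold change was -1.12, below the lowest autosome at -0.29. It was also the lowest with library size, at -1.80 against -0.97 or more on the autosomes, and with Sertoli scaling, at 1.19 against 1.99 or more. X-linked genes took 3.34%, 3.43% and 3.39% of the counts at P8 and 1.03%, 1.01% and 1.06% at P40, a ratio of 0.306 (two-sided exact permutation p = 0.10, the smallest possible), where the autosomes ranged from 0.799 to 1.37. The X chromosome is known to be silenced in spermatocytes at pachytene and to be partly reactivated in spermatids. Among X-linked members of the lists, Akap4, Tsx and Rhox5 rose and Pgk1, Pdha1, Rpl10 and Agtr2 fell, of which Pgk1 (0.20) was above 0 with Sertoli scaling.

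On the Y chromosome, 50 of 183 genes were tested, 64% of them higher and 20% lower, while its share of the counts went from 0.0419% ± 0.00777 to 0.0182% ± 0.000645 (SD, n = 3). Most of its genes belong to families of near-identical copies, so that single levels are uncertain. Among the autosomes, chromosome 14 had the highest share of genes higher, at 43.2%, with 3.33% ± 0.0523 and 3.35% ± 0.00801 of the counts at P8 and P40, and chromosome 17 gained the most, from 4.49% ± 0.0902 to 6.13% ± 0.0442. The 13 mitochondrial genes took 3.48% ± 0.377 of the counts at P8 and 1.63% ± 0.1199 at P40.

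**Figure D4:**
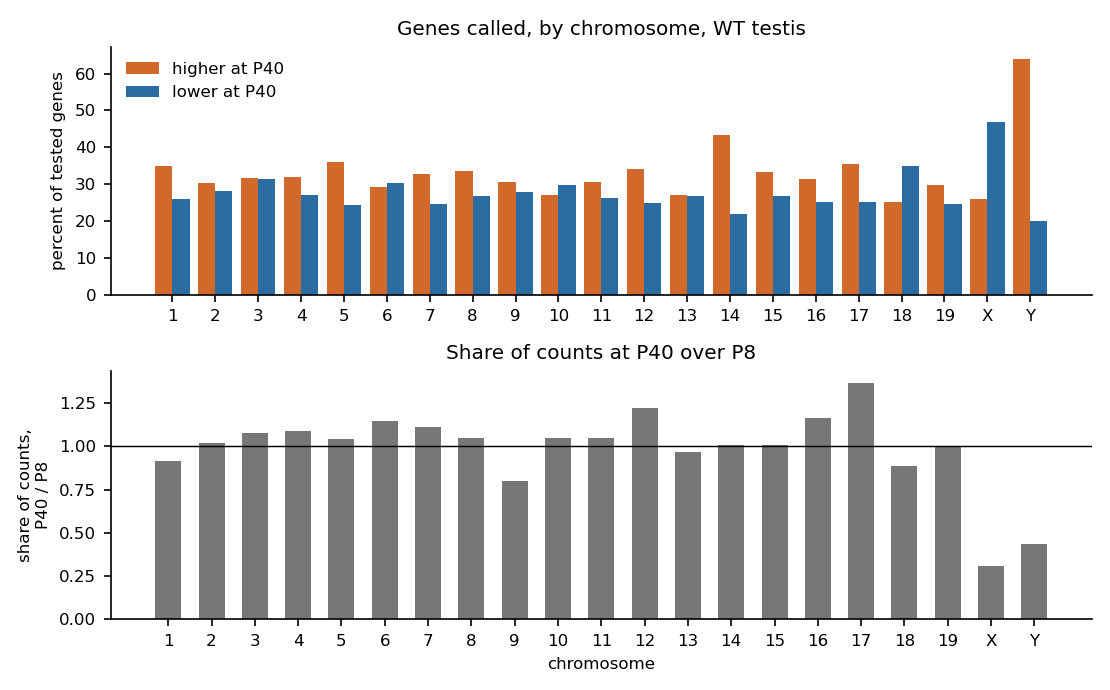
Percent of tested genes called higher or lower at P40 on each chromosome (upper bars), and the share of counts at P40 over that at P8, from the means of 3 WT libraries each (lower bars, line at 1). The X chromosome has the highest share of lower genes, 46.9%, and the lowest ratio of counts, 0.306.

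Loci outside the annotation, listed in the table by number and without coordinates, were also counted. They took 1.89% to 2.01% of the counts at P8 and 3.14% to 3.35% at P40. In a fit of all entries of the table, 4017 of 5625 tested loci (71.4%) were higher at P40 and 465 (8.27%) lower.

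WT testis at P23 stands in a second table that was made separately, so that its values are set beside the others without a test, as shares of the counts of the 21561 genes in both tables. Stem cell genes took 0.05798% ± 0.00712 at P8, 0.0123% ± 0.000245 at P23 and 0.0133% ± 0.000977 at P40 (SD, n = 3, as for all values here). Meiotic axis genes took 0.0339% ± 0.0136 at P8, 0.23% ± 0.00563 at P23 and 0.202% ± 0.00125 at P40. Sperm chromatin genes took 0.00294% ± 0.000609 at P8, 0.946% ± 0.0926 at P23 and 0.726% ± 0.0485 at P40. Sperm tail genes took 0.0127% ± 0.00105 at P8, 2.44% ± 0.0239 at P23 and 2.28% ± 0.111 at P40. At P23, then, each of these lists was much nearer to its share at P40 than to that at P8. Sertoli cell genes took 0.812% ± 0.124 at P8, 0.223% ± 0.00353 at P23 and 0.192% ± 0.0201 at P40, and matrix genes 2.4% ± 1.04 at P8, 0.0968% ± 0.00225 at P23 and 0.115% ± 0.0421 at P40. Of the meiotic genes, Sycp3 had a mean of 16.3 CPM at P8, 219.7 at P23 and 123 at P40, by library totals of the shared genes. On the same scale Insl3 was at 83.2, 634 and 632, Lhcgr at 27.99, 7.58 and 23.01, and Star at 77.7, 24.02 and 53.3. Lhcgr and Star were thus lowest at P23. Prm1 was at 0.0624, 1867 and 967, Tnp1 at 0, 746 and 341, and Prm2 at 0.0535, 2452 and 2357. RNA of these 3 genes thus stood at P23 at or above its P40 level. P23 lies before the sixth week named above, but that time is for elongated spermatids and their nuclear proteins, not for RNA. The cause of these P23 levels, the age labels included, was not tested.

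**Figure D5:**
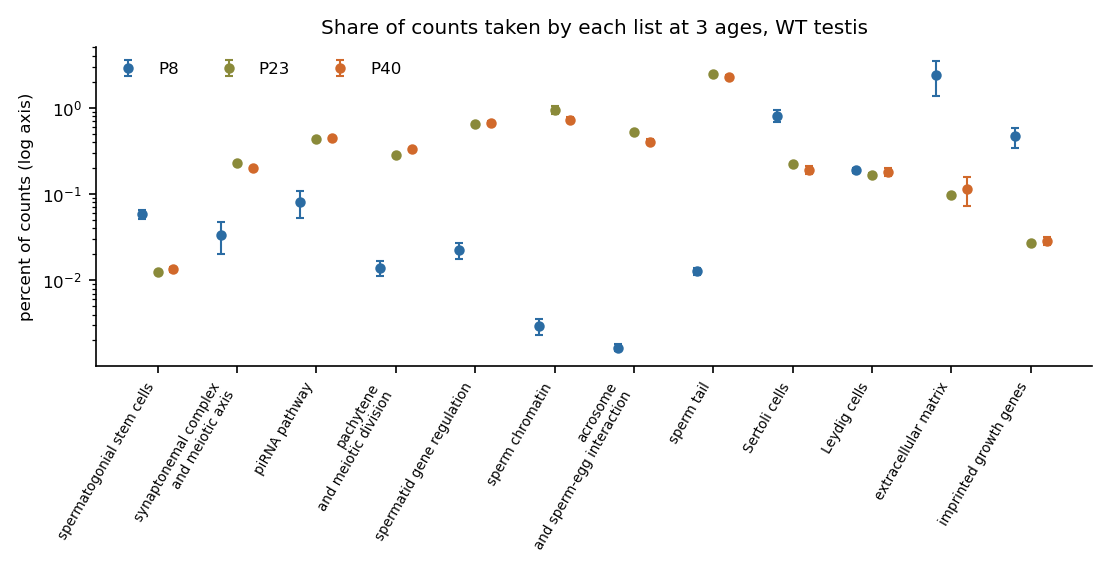
Percent of counts (log axis) taken by 12 gene lists in WT testis at P8, P23 and P40, as the mean and SD of 3 libraries, over genes shared by the separately made tables. Germ cell lists from meiosis on are low at P8 and similar at P23 and P40, and the Leydig list stays between 0.168% and 0.188%.

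Whether this course differed in INSL3-KI testis was tested with the interaction of genotype and age over the 12 libraries of both genotypes at P8 and P40. Of 17540 genes, 4040 (23%) had a larger, that is more positive, change in INSL3-KI and 3939 (22.5%) a smaller one. INSL3-KI libraries stood apart before this test, as CPM of library totals show. Piwil1 was at 10.3, 413 and 8.32 CPM in INSL3-KI at P8, against 6.84, 3.73 and 4.77 in WT, so that INSL3-KI P8 replicate 2 lay near the P40 level of WT. At P40 Piwil1 was at 442, 50.4 and 41.1 in INSL3-KI, with replicate 1 apart. Whether the age labels of these 2 libraries are right could not be settled from the data. Without INSL3-KI P8 replicate 2 and INSL3-KI P40 replicate 1, a choice made after seeing the data, 4177 genes had a larger and 4442 a smaller change. All 3 INSL3-KI P8 libraries also had more Sycp3 (175, 302 and 138 CPM) than WT at P8 (25.5, 13.6 and 9.73), and more Hsd3b6 (4.31, 40.6 and 5.89 against 0.0873, 0 and 0.08001).

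Germ cell lists from meiosis on had smaller changes in INSL3-KI in 14 of 15 meiotic axis genes, 11 of 12 spermatid regulators, 23 of 32 tail genes, 11 of 19 acrosome genes and 6 of 14 sperm chromatin genes, and larger in none of these. Without the 2 libraries these numbers were 14, 11, 27, 11 and 6. The change was also smaller in 15 of 20 recombination genes, 8 of 12 pachytene genes, 11 of 20 piRNA genes and 9 of 15 ion transport genes. Without the 2 libraries the numbers for these lists were 16, 12, 17 and 9. In the piRNA and ion transport lists 1 gene each had a larger change, with and without the 2 libraries. A gene with few or no counts at P8 has an uncertain interaction, so that these numbers cannot be ranked between lists. Among genes without a WT count at P8, Tnp1 (-14.87) and Adam2 (-15.83) were called, while Spam1 (-8.62) was not. Of 19 stem cell genes 10 had a larger change and none a smaller one (9 and 0 without the 2 libraries). Of 12 genes of differentiation and meiotic entry 3 had a larger and 3 a smaller one, with and without the 2 libraries. That is near the 23% larger and 22.5% smaller over all genes. Prm2 was at 6.82, 0.114 and 0.486 CPM in INSL3-KI at P40 and 2609, 2480 and 1943 in WT, an interaction of -11.65 (adjusted p = 0.0044), whose call was lost without the 2 libraries (-9.70, adjusted p = 1). Akap4 was at 12.97, 1.88 and 3.71 and 1721, 1687 and 1454, an interaction of -7.88 (adjusted p = 0.00013), or -9.02 without them (adjusted p = 4.9e-05). The change was larger, that is a smaller fall where WT fell, in 19 of 28 Sertoli genes, 14 of 14 matrix genes and 9 of 10 imprinted genes (19, 13 and 9 without the 2 libraries). Amh was at 49.9, 91.7 and 89.2 CPM in INSL3-KI at P40 and 4.46, 3.89 and 4.43 in WT, after 203, 108 and 205 and 576, 859.9 and 682 at P8, an interaction of 5.63 (adjusted p = 6.8e-06), or 5.61 without the 2 libraries (adjusted p = 4.3e-08). Hsd3b6 reached 251, 430.3 and 392 CPM in INSL3-KI at P40, above WT (73.1, 82.5 and 75.8), and its interaction was -6.57 (adjusted p = 0.0016), or -4.63 without the 2 libraries (adjusted p = 9.9e-06), with the higher INSL3-KI level at P8 beside it.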

How the data were processed

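Total RNA was extracted from whole testis and sequenced with an mRNA library kit. The authors deposited, for P8 and P40 in 1 table, raw read counts and FPKM per gene for each library. Per the submitters' processing notes reads were aligned with HISAT2 to GRCm38. The counting program, the annotation release and the use of strand are not given in the sources used here. The 3 WT libraries of each age were grouped by their labels. Where several IDs share a symbol, the one with the most counts was taken.

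The 22036 Ensembl genes were tested with edgeR 4.0.16 (R 4.3.3) on the deposited counts, with TMM, filterByExpr (minimum count 10, minimum total 15), the quasi-likelihood test and Benjamini-Hochberg adjustment. The thresholds (adjusted p 0.01, fold change 2) are those of the study, which used DESeq2. CPM were computed from the counts, and the deposited FPKM were used to compare genes and pairs within a library. DESeq2 1.42.0, limma 3.58.1 on log2 FPKM, other scalings and filters, a replicate block and omitted replicates were alternatives. The fits were tested on simulated data. The labels do not say that replicates are separate animals, so p-values measure the spread between these samples. Ratios and bounds rest on a floor of 3 counts over the group, with 95% counting intervals.

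The members, the lists and the pairs were chosen with earlier results of these data known. Named were the key genes of each list, the 10 largest changes in each direction with a mean of at least 10 CPM, no overlap between ages and a named symbol, the 5 highest FPKM at each age (mitochondrial genes left out), the pairs, genes of the study's text and the largest and smallest change of a list. Crisp1, Cldn3, Drd4, Eppin, Ccnb2 and Prm3 were named after their values were seen, and so was the CRE-like motif. Some genes that these rules name are not reported here, but stay in the counts over lists and over all genes. Genome positions are those of GENCODE M21 and promoters those of RefSeq, both GRCm38, in which 22022 gene IDs matched GENCODE. WT testis at P23 stands in a table made separately and entered no test.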

Additional observations from a re-analysis of the deposited data

Results flagged for a closer look

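The change from P8 to P40 differed between INSL3-KI and WT testis by a test of the difference itself, the interaction of genotype and age. The change was larger in INSL3-KI for 4040 of 17540 genes and smaller for 3939. INSL3-KI P8 replicate 2 and INSL3-KI P40 replicate 1 stood apart from the other libraries of their groups, and whether their age labels are right could not be settled. Without both, in a choice made after seeing the data, the numbers were 4177 and 4442.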

How the results depend on the processing

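The number of genes higher at P40 was 6088 with DESeq2, 5570 without a filter, 4252 with library size, 11935 with Sertoli scaling, 9168 with all entries of the table (loci outside the annotation included), 3568 with limma on log2(FPKM + 1) and 3975 at a fold change of at least 4. The number lower was 4468, 4720, 6930, 566, 5795, 5748 and 2404 in the same order. With 1 replicate left out, 5276 to 5619 genes were higher and 4278 to 4830 lower. For the difference between genotypes, 2621 genes had a smaller change in INSL3-KI with library size and 2845 to 4667 with 1 replicate left out, and 3566 to 4362 had a larger one. The 24 changes of ratio in pairs stayed positive with a pseudocount of 0.1 and without each replicate.

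With Sertoli scaling, which moves every value by about the same amount by construction, log2 fold changes that were negative with TMM became Cetn2 0.31, Clu 1.73, Cox6b1 0.61, Cox8a 0.085, Csf1r 1.80, Cstf2 2.25, Cx3cr1 1.69, Cycs 0.67, Cyp21a1 0.95, Dazl 1.70, Eef1a1 1.27, Gapdh 0.83, Gfra1 0.97, Grb10 0.42, Hsd17b3 0.62, Hsd3b1 1.74, Hsp90ab1 0.26, Hspa1b 0.16, Hspa8 0.58, Inha 0.41, Kit 1.35, Mki67 0.67, Myh11 0.26, Papola 1.90, Pgk1 0.20, Ppp3r1 0.49, Psma7 0.62, Rec114 0.60, Rplp0 1.89, Slc25a4 0.61, Sox9 0.21, Sparc 0.53, Stra8 1.03, Taf7l 1.39, Tex11 1.26, Tpt1 0.87, Trf 1.49, Utp14a 1.08 and Wt1 0.32, and list medians became stem cell 0.076, differentiation 1.19, Sertoli 0.36, smooth muscle 0.28, endothelium 0.40, mitotic cycle 1.08 and skeletal muscle 1.94. With library size, values that were positive became Aldoa -0.53, Cdc25c -0.048, Cstf2t -0.39, Eno1 -0.45, Lep -0.031, Lhcgr -0.29, Rnf8 -0.23, Slc25a31 -0.13 and Star -0.55, and medians Leydig -0.55, macrophages -0.48 and heat shock proteins -0.18. With limma on log2(FPKM + 1) they became Aldoa -0.51, Cdc25c -0.063, Cstf2t -0.39, Eno1 -0.28, Lep -0.001, Lhcgr -0.22, Slc25a31 -0.10 and Star -0.51, and medians Leydig -0.51, macrophages -0.35 and heat shock proteins -0.18. With a pseudocount of 0.1 they became Aldoa -0.51, Cdc25c -0.071, Cstf2t -0.41, Eno1 -0.28, Lhcgr -0.28, Slc25a31 -0.10 and Star -0.54, and medians Leydig -0.54, macrophages -0.52 and heat shock proteins -0.18. With all entries of the table they became Aldoa -0.015 and Star -0.044. With DESeq2, Cstf2 0.10 and the skeletal muscle 0.41 median were positive, and without a filter the skeletal muscle median was 0.26. The cause was not tested for the changes of sign with FPKM, DESeq2 or all entries. With 1 replicate left out, Csf1r ranged over -0.64 to 0.16, Star over -0.07 to 0.35, Trf over -0.95 to 0.09, and the medians of Leydig cells over -0.07 to 0.18, macrophages over -0.12 to 0.48 and skeletal muscle over -0.55 to 0.60. Over 176 named genes and their alternatives, 2419 values kept direction and call, 65 gained a call, 87 lost it and 69 changed sign.

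Replicate numbers did not pair the ages. Deviations of same-numbered libraries from their group means correlated at -0.033, -0.006 and 0.062. With the replicate number as a block, 5174 genes were higher and 4473 lower, and the difference between genotypes was larger in INSL3-KI for 3453 and smaller for 2868.

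With 3 libraries per age an exact test cannot go below 0.10. At 34680790 counts or more per library, depth limits genes of a few counts. Whole testis mixes cell types, and the scaling between ages with so different a makeup decides the direction of genes near the median. Reads of near-identical copies cannot be told apart.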

Other observations

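Markers of other tissues were called in part, in lists too short to set against the 31.9% higher and 27.7% lower over all genes. With Sertoli scaling no gene of these lists was called lower. All 5 red blood cell genes were tested, of which 4, the globin genes, were lower and 1, Alas2, the first enzyme of haem synthesis in red cells, was higher at 1.96 ± 0.23. The globin genes are near-identical copies, so that single levels are uncertain. Of 4 adipocyte genes, 1 was lower. Plin1, the coat protein of lipid droplets, was at 19.96, 25.3 and 89.9 CPM at P8 and 7.09, 7.67 and 6.52 CPM at P40, highest in P8 replicate 3, and its change of -2.67 ± 0.57 was called lower (adjusted p = 0.0031). Of 5 tested skeletal muscle genes, 1 was higher, and of 2 tested adrenal genes, 1 was lower. In each of these lists, 1 tested gene passed the filter only through P8. Of 2 tested epididymal genes, Cst11 was lower and Rnase10 was higher, at 0, 0 and 0.128 CPM at P8 and 6.09, 5.102 and 5.5 CPM at P40. Each passed the filter only through the age at which it was high, so that both had to differ.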
